A study of Mus musculus with 6 samples.

Results

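Nanopore direct RNA sequencing of the mouse cell lines 2H-11 and SVEC4-10 gave reads at many loci that the authors list as new genes, and 1664 of those loci were counted well enough to be described here. The deposited gene table held 34724 rows, of which 12214 carried the type New_gene. The loci were chosen by level: a New_gene row was taken when its mean over the 3 libraries of a line reached 5 CPM in 2H-11 or in SVEC4-10; CPM is the read count scaled to the same total in every library. That rule kept 13.6% of the New_gene rows, and these loci held 87.3% of all CPM on New_gene rows. The rule read the level in these same libraries, so the levels below are a description, and counts of calls over the loci are read only beside the same counts over all genes and over known genes under the same rule. Just inside the rule lay ONT.15366 at 5.003 CPM and ONT.1930 at 5.006 CPM in their higher line, both in SVEC4-10. Just outside it lay ONT.14060 and ONT.9816, at 4.994 and 4.991 CPM in 2H-11.

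A nanopore reads each native RNA molecule from its poly(A) tail as one long read, without conversion to cDNA. Long reads that fall outside the annotation, or outside the part of it that a study uses, are gathered into loci with new identifiers. Such loci commonly include long noncoding RNA genes, transcripts of pseudogenes and repeats, antisense transcripts, and extensions or run-through products of annotated genes. Because each molecule gives about one read, CPM here counts molecules and is not divided by transcript length.

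The 2 lines come from axillary lymph node of adult mice of the strain C3H/HeJ and were transformed with SV40. Per the labels 2H-11 stands for tumor endothelial cells and SVEC4-10 for normal ones, with no treatment or genotype beyond that. Each had 3 libraries of total RNA. Since 1 line stands for each state, tumor state and any other property of a line cannot be told apart. Whether the 3 libraries were grown separately is not stated, and the p-values cover only their spread, which may be technical.

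Library totals ran from 3628400 to 16798666 counted reads, and SVEC4-10 replicate 3 alone held 68.0% of the counts of its line. Where a line has no count, the level may still be up to 0.196 CPM for 2H-11 or 0.121 CPM for SVEC4-10 (3 counts over the line's total, counting error only). Of 12 endothelial markers, 5 had no count and 9 stayed under 1 CPM in every library. Among these 9, Pecam1, Cdh5, Vwf and Cldn5, which define vascular endothelium, had at most 2 counts in all libraries of a line. The markers that passed 1 CPM were Eng, Egfl7 and Flt1, each with the higher mean in 2H-11. Eng was at 9.61 ± 2.6 CPM in 2H-11 and 2.46 ± 0.507 in SVEC4-10 (SD, n = 3). Egfl7 was at 5.4 ± 1.35 and 0.787 ± 0.0745 CPM, and Flt1 at 1.68 ± 0.714 and 1.25 ± 0.74 CPM. The summed endothelial level was 13.2 to 21.6 CPM in 2H-11 and 3.97 to 6.01 CPM in SVEC4-10. The 5 mesothelial markers summed to 58.5 to 72.4 CPM in 2H-11 and 3162 to 4065 CPM in SVEC4-10, while Krt19 among them ran the other way, at 22.0 ± 7.08 CPM in 2H-11 and 0.196 ± 0.243 in SVEC4-10 (SD, n = 3). The 7 fibroblast and mural markers summed to 1779 to 2285 and 1806 to 1891 CPM, but single markers differed in both directions. Col1a1, Col1a2, Pdgfra and Pdgfrb had the higher mean in 2H-11, Acta2 and Col3a1 in SVEC4-10, and Rgs5 had no count. Pdgfrb was at 27.5 ± 5.04 CPM in 2H-11 with no count in SVEC4-10, and Acta2 at 872 ± 238 and 1150 ± 298 CPM. Epithelial markers stayed at or under 5.38 CPM and leukocyte markers at or under 8.54 CPM in every library.

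The identity of the new loci was looked up only in their identifiers and symbols. Other annotation columns were not searched for these loci. In all 1664 loci the symbol equalled the authors' identifier, written ONT and a number, and no locus carried another symbol. The table gives these loci no coordinates, so neither their sequence nor their neighbouring genes could be shown. The rows typed Known_gene covered mainly one class of gene. Of the protein-coding genes of GENCODE M21, 21914 of 21951 (99.8%) had their identifier among the known-gene rows used here. The same held for 6 of 13374 long noncoding RNA genes and for 95 of 13523 pseudogenes. Rows of the separate type Known_lncRNA_gene, 96 of them under the same CPM rule, were not searched. The long noncoding count therefore leaves them out. Known genes in the comparisons below are therefore nearly all protein coding, and a New_gene row need not lie outside the annotation. In addition, 3 fragments of annotation text naming a protein followed New_gene rows, but none of those rows reached 5 CPM. They are ONT.15796 with a Ptgs2 fragment, ONT.7877 with a Dab2 fragment and ONT.19782 with a Gsk3a fragment. The most abundant of them, ONT.15796, averaged 3.55 ± 0.5 CPM in the 2H-11 libraries and 1.69 ± 0.667 in those of SVEC4-10 (SD, n = 3).

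Most of the new loci were expressed at a low level, with a few very abundant exceptions. The median of the mean CPM over the 6 libraries was 7.53, with quartiles at 4.98 and 15.3, and the 90th percentile was 36.7 CPM. The 9005 known genes that met the same rule had a median of 23.8 CPM, with quartiles at 10.5 and 64.8. Levels under 10 CPM were found in 62.1% of the new loci and 23.5% of the known genes, and levels of 100 CPM or more in 3.55% and 17.5%. Within the new loci the CPM was concentrated, since the 10 most abundant held 46.2% of it and 14 loci held 50% of it.

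ONT.13294 was the most abundant new locus and ranked 5 among all 34724 rows of the table. Its level was 7586, 6563 and 6651 CPM in 2H-11 replicates 1 to 3 and 8004, 9363 and 7784 CPM in SVEC4-10 replicates 1 to 3. The lines did not overlap, but the difference did not pass the test (log2 fold change, always 2H-11 over SVEC4-10, -0.37, SE 0.15, edgeR quasi-likelihood test with Benjamini-Hochberg adjustment over all genes, adjusted p = 0.0654). ONT.13294 was called lower without a filter (edgeR adjusted p = 0.0109) and with scaling factors taken from New_gene rows alone (0.000851). The same held without 2H-11 replicate 1 (0.0341) or SVEC4-10 replicate 1 (0.013). ONT.11063 followed with 3146, 2214 and 4425 CPM in 2H-11 and 5112, 3866 and 2616 CPM in SVEC4-10. Its libraries overlapped and spread widely within both lines. It did not pass the test (edgeR adjusted p = 0.311). It was called lower without a filter (0.0351), without 2H-11 replicate 3 (0.0312) and with factors from New_gene rows (0.00216).

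ONT.762 was at 1504, 2066 and 2697 CPM in 2H-11 and at 4093, 2567 and 3686 CPM in SVEC4-10. It fell in 2H-11 (log2 fold change -0.80, SE 0.20, edgeR adjusted p = 0.00457), although the highest 2H-11 library lay above the lowest SVEC4-10 library. ONT.23855 was at 2049, 1719 and 1643 CPM against 2239, 2419 and 2117 CPM, with no overlap between the lines. Its decrease was small and close to the threshold (log2 fold change -0.42, edgeR adjusted p = 0.0367). With scaling factors taken from known genes alone the adjusted p was 0.11, and with library size as the only scaling it was 0.064. The edgeR call was also lost without 2H-11 replicate 2 (0.164), 2H-11 replicate 3 (0.0781) or SVEC4-10 replicate 2 (0.0621), and after thinning to the smallest library (0.0594). It held without 2H-11 replicate 1 (0.0155), SVEC4-10 replicate 1 (0.0147) or SVEC4-10 replicate 3 (0.0403).

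The other 6 of the 10 most abundant loci did not pass the test. With scaling factors taken from New_gene rows alone, all of these but ONT.853 were called lower (edgeR adjusted p 0.000657 to 0.0169). ONT.22281 was also called lower without 2H-11 replicate 3 (edgeR adjusted p = 0.0272). ONT.22281 (2825 ± 454 CPM in 2H-11 and 3258 ± 60.8 in SVEC4-10), ONT.17634 (2916 ± 397 and 3031 ± 342), ONT.16778 (2361 ± 320 and 2572 ± 103), ONT.84 (1520 ± 97.1 and 1610 ± 23.6) and ONT.323 (883 ± 118 and 919 ± 144) had overlapping libraries. ONT.853 was the only one of the 10 with a higher mean in 2H-11, at 1252, 1297 and 1646 CPM against 940, 1204 and 1200 CPM (edgeR adjusted p = 0.332). As a block, the 10 loci took 2.40 to 2.81% of all counts in the 2H-11 libraries and 2.86 to 3.18% in the SVEC4-10 libraries.

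**Figure D1:**
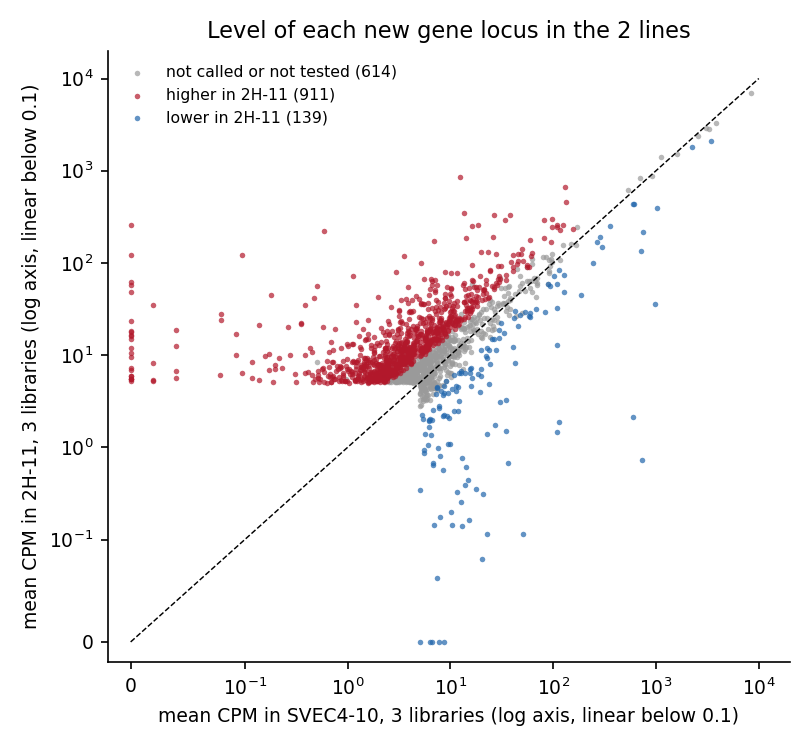
Mean CPM of each of the 1664 new gene loci in SVEC4-10 (horizontal axis) and 2H-11 (vertical axis), 3 libraries each, on log axes that turn linear below 0.1 CPM; each point is 1 locus, coloured by its call in the line comparison. The 911 loci called higher in 2H-11 fill the area above the diagonal at low and middle levels, and the most abundant loci lie close to the diagonal.

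The lines differed in which loci they brought over 5 CPM. Both lines reached that level for 762 loci (45.8%), 2H-11 alone for 769 (46.2%) and SVEC4-10 alone for 133 (7.99%). Known genes under the same rule were more often shared and more even, with 7761 (86.2%) in both lines, 656 (7.29%) in 2H-11 alone and 588 (6.53%) in SVEC4-10 alone. Complete absence from a line was uncommon. No count in any SVEC4-10 library was found for 22 loci (1.32%, against 0.955% of all genes tested) and no count in any 2H-11 library for 5 loci (0.301%, against 0.485%). A mean CPM at least 10-fold higher in 2H-11 was found for 115 loci (6.91%, against 3.66% of all genes tested), and at least 10-fold lower for 36 (2.16%, against 2.15%).

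In the line comparison 911 of the 1662 loci tested were called higher in 2H-11 (54.8%, against 20.1% of the 13187 genes tested) and 139 were called lower (8.36%, against 16.2%). The threshold was an adjusted p of 0.05 from the edgeR quasi-likelihood test. Known genes under the same CPM rule leaned the other way, with 1117 of 9000 tested called higher (12.4%) and 1789 called lower (19.9%). Among called loci 86.8% were higher in 2H-11, and among called known genes 38.4%. The loci had a median log2 fold change of 0.98, with quartiles at 0.18 and 1.71, beside -0.11 for the known genes and 0.0025 for all genes tested. A value above 0 was found for 79.2% of the loci and 41.6% of the known genes.

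The counts depended on how the libraries were scaled. When the scaling factors were computed from New_gene rows alone, an alternative chosen after seeing the data, 427 loci were called higher and 336 lower, so 56.0% of the calls were higher. All 427 were among the 911. That scaling moved the median log2 fold change of all genes to -0.76 and left 7.68% of the calls on known genes higher. With factors from known genes alone, 950 loci were called higher and 125 lower, and the share of higher calls on known genes rose to 49.1%; the median of all genes moved by about 0.11 to 0.113. Under every scaling tried the loci had more higher than lower calls, and a larger share of higher calls than the known genes.

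Larger changes also had more higher than lower calls. Of the 1662 loci tested, 810 were called higher with at least a 2-fold change (against 15.7% of all genes tested). Lower calls of that size numbered 112 (against 9.17%). With at least an 8-fold change, 138 of the 1662 were called higher (against 3.99%) and 43 lower (against 2.49%). The share of these 43 was close to that over all genes tested, unlike the share of lower calls of any size. Every 2H-11 library lay above every SVEC4-10 library for 996 loci (59.9%, against 28.0% of all genes tested), and below for 143 (8.60%, against 18.8%). By side of the rule, the 762 loci at 5 CPM or more in both lines held 323 higher calls (42.4%) and 61 lower calls (8.01%), beside 675 (8.70%) and 1379 (17.8%) of the 7761 known genes on that side. The 769 loci over the rule in 2H-11 alone held 588 higher calls (76.5%), beside 442 of 656 known genes (67.4%). The 133 over it in SVEC4-10 alone held 78 lower calls (58.6%), beside 410 of 588 known genes (69.7%). For these one-sided loci and genes the rule itself favours a difference in that direction.

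**Figure D2:**
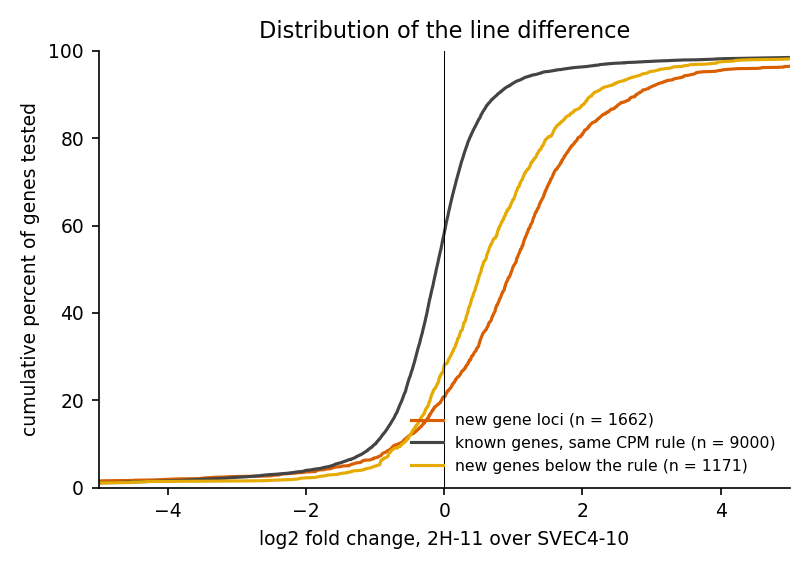
Cumulative percent of genes tested (vertical axis) by log2 fold change of 2H-11 over SVEC4-10 (horizontal axis). The curves are the new gene loci, the known genes under the same CPM rule and the tested New_gene rows below the rule. The curve of the new loci lies to the right, with its median at 0.98 beside -0.11 for the known genes; with scaling factors from New_gene rows the medians are 0.16 and -0.87.

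The difference in direction between new loci and known genes was present at each level. At 2.5 to 5 CPM every locus and known gene met the CPM rule through a single line. This by itself favours a call toward that line. Higher bins also held some such loci. In genes at a mean of 2.5 to 5 CPM, 61.4% of 417 new loci were called higher and 6.47% lower, beside 32.4% and 28.2% of 476 known genes. At 5 to 10 CPM the shares were 48.0% and 6.35% of 614 new loci, beside 13.9% and 14.8% of 1636 known genes. At 10 to 25 CPM they were 60.7% and 8.18% of 379 new loci, beside 11.3% and 19.3% of 2530 known genes. At 25 to 100 CPM they were 54.9% and 13.5% of 193 new loci, beside 10.9% and 21% of 2780 known genes.

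The lean toward 2H-11 was least in the most abundant loci. At 100 CPM or more, 24 of 59 new loci were called higher (40.7%) and 16 lower (27.1%). The median of their log2 fold changes was 0.16. The bin held 146 higher and 341 lower calls of 1578 known genes. With scaling factors from New_gene rows this order flipped to 14 higher and 27 lower, and at 25 to 100 CPM to 45 higher and 47 lower, while the known genes at 100 CPM or more then held 20 higher and 973 lower calls. Weighting known genes to the levels of the called new loci gave 44.5% of their calls higher, 42.3 percentage points under the new loci. The weighting keeps loci and known genes that met the CPM rule through a single line. The comparison is a description of these libraries with no test.

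**Figure D3:**
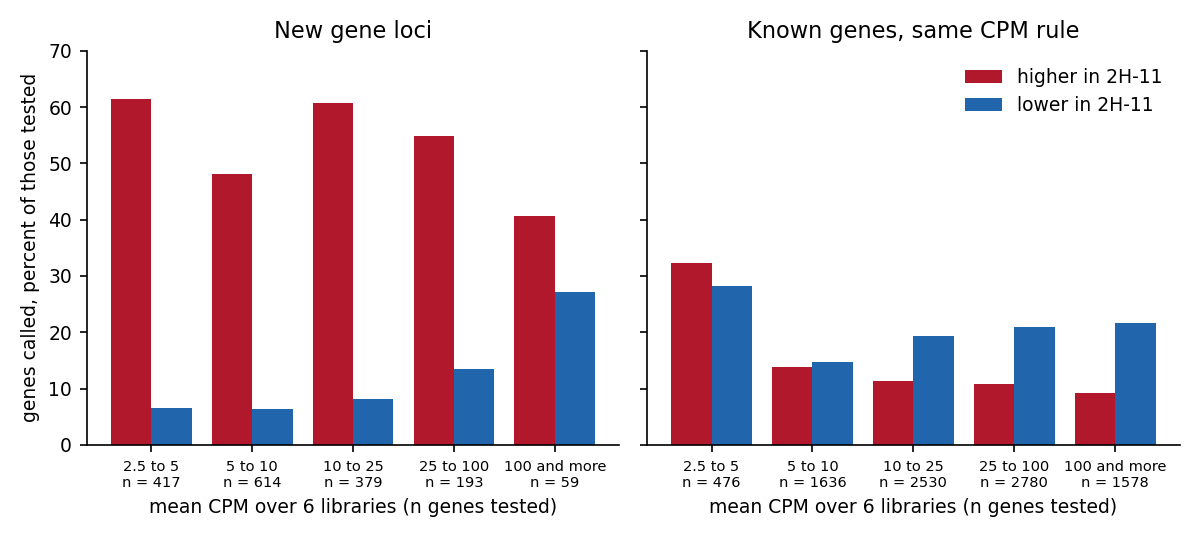
Percent of tested genes called higher or lower in 2H-11 (vertical axis, from 0) in bins of mean CPM over the 6 libraries, for new gene loci and for known genes under the same CPM rule; n under each bin is the number tested. Higher calls outnumber lower calls in every bin of the new loci, down to 24 against 16 at 100 CPM or more. With scaling factors from New_gene rows the order flips in the bins of 25 to 100 and of 100 CPM or more. All loci and known genes in the bin of 2.5 to 5 CPM met the CPM rule through a single line.

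Few rows were typed as long noncoding RNA. Of 96 known long noncoding rows under the same rule, 34 were called higher in 2H-11 and 12 lower. Of 35 rows of the type Novel_lncRNA_gene, 14 were called higher and 15 lower. New_gene rows below the rule that could be tested (1171) held 350 higher and 47 lower calls.

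The loci that rose most in 2H-11 were near or at 0 in SVEC4-10. They met the CPM rule only through 2H-11 and were picked by fold change among the calls. Their adjusted p-values are therefore descriptive. ONT.19480 had 201, 284 and 292 CPM in 2H-11 and no count in any SVEC4-10 library. Against the limit that 0 counts over SVEC4-10 allow, it was at least 2134-fold higher in 2H-11 (edgeR adjusted p = 4.27e-12); without SVEC4-10 replicate 3, the deepest library, the bound was 683-fold. ONT.16231 had 137, 115 and 117 CPM in 2H-11 and no count in SVEC4-10, at least 1015-fold higher (edgeR adjusted p = 6.72e-12), or 325-fold without that library. In both loci the 2H-11 libraries lay close together and far above the limit in the other line.

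ONT.3531 had 99.9, 123 and 143 CPM in 2H-11 and 2 counts over all SVEC4-10 libraries, 1 in replicate 1 and 1 in replicate 3. The ratio of the lines' counts, scaled by their totals, was 1514 (95% counting interval 418.5 to 12511, edgeR adjusted p = 3.41e-12). It was 2504 without SVEC4-10 replicate 1 and 969 without replicate 3. These few counts leave the size of the ratio uncertain, while both ends of the interval are far above 1.

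The other loci among the 8 largest increases had no count in SVEC4-10. ONT.19583 was at 44.1, 68.0 and 73.3 CPM in 2H-11, at least 509-fold higher, ONT.19591 at 48.2, 65.3 and 61.3 CPM, at least 480-fold, and ONT.1348 at 28.5, 52.9 and 63.3 CPM, at least 397-fold. ONT.12549 was at 21.6, 19.2 and 28.8 CPM, at least 191-fold higher, and ONT.20868 at 12.1, 18.5 and 24.0 CPM, at least 150-fold. Without SVEC4-10 replicate 3 these bounds were 163, 154, 127, 61.2 and 48.0. In 4 of these 5 loci 2H-11 replicate 1 was the lowest library of its line.

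The 5 most abundant loci called higher, and below the most abundant called lower, were picked after their values were seen. ONT.17163 was at 665, 848 and 1078 CPM in 2H-11 and at 14.3, 11.6 and 11.3 CPM in the other line (log2 fold change 6.06, SE 0.24, edgeR adjusted p = 2.96e-12). ONT.22856 was at 482, 667 and 851 CPM against 134, 117 and 137 CPM (log2 fold change 2.28, SE 0.20, edgeR adjusted p = 6.14e-08). In both, 2H-11 replicate 1 was lowest and replicate 3 highest, while the SVEC4-10 libraries lay close together.

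ONT.13423 rose from 138, 115 and 146 CPM in SVEC4-10 to 350, 470 and 538 CPM in 2H-11 (log2 fold change 1.68, edgeR adjusted p = 1.12e-06). ONT.7833 was at 206, 313 and 384 CPM in 2H-11 and at 107, 91.2 and 95.7 CPM in the other line (log2 fold change 1.53, edgeR adjusted p = 1.2e-05). Its call was lost with scaling factors from New_gene rows (log2 fold change 0.69, edgeR adjusted p = 0.062). ONT.21020 overlapped between the lines, at 181, 238 and 284 CPM against 193, 123 and 147 CPM. Its call was marginal (edgeR adjusted p = 0.0457) and was lost under several alternatives, with an adjusted p of 0.0961 by DESeq2, 0.212 without 2H-11 replicate 3 and 0.415 with factors from New_gene rows, where the sign also turned.

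Several of the loci with the largest decreases had widely spread SVEC4-10 libraries. These loci met the CPM rule only through SVEC4-10 and were picked by fold change among the calls, so their adjusted p-values are descriptive too. ONT.5685 was at 0.372, 0.974 and 0.858 CPM in 2H-11 and at 1259, 427 and 506 CPM in the other line (log2 fold change -10.01, SE 0.465, edgeR adjusted p = 1.35e-11). Replicate 1 stood far above the other SVEC4-10 libraries, whose mean without it was 467 CPM. ONT.6655 showed the same order, with 2.05, 3.17 and 1.20 CPM in 2H-11 and 927, 415 and 458 CPM in the other line (log2 fold change -8.25, SE 0.36, edgeR adjusted p = 6.72e-12). Without SVEC4-10 replicate 1 its mean in that line was 436 CPM.

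ONT.24442 had 2 counts in 2H-11, both in replicate 3, and 88.8, 31.4 and 33.8 CPM in SVEC4-10. The same ratio was 329 (95% counting interval 90.85 to 2720), 213.5 without 2H-11 replicate 1, and a bound of at least 162-fold without replicate 3. The remaining 5 of the 8 largest decreases had no count in 2H-11 and low levels in SVEC4-10. ONT.2791 was at 13.1, 3.86 and 9.17 CPM in SVEC4-10, at least 44.4-fold lower in 2H-11, ONT.12147 at 12.2, 5.51 and 5.66 CPM, at least 39.7-fold, and ONT.11149 at 8.88, 4.69 and 6.07 CPM, at least 33.4-fold. ONT.10882 was at 8.88, 5.24 and 4.76 CPM, at least 32.1-fold lower, and ONT.15366 at 5.84, 5.24 and 3.93 CPM, at least 25.5-fold. Without 2H-11 replicate 3 these bounds were 27.5, 24.6, 20.7, 19.9 and 15.8, and without 2H-11 replicate 1 28.8, 25.7, 21.7, 20.8 and 16.6. SVEC4-10 replicate 1 was the highest library of its line in all 8.

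**Figure D4:**
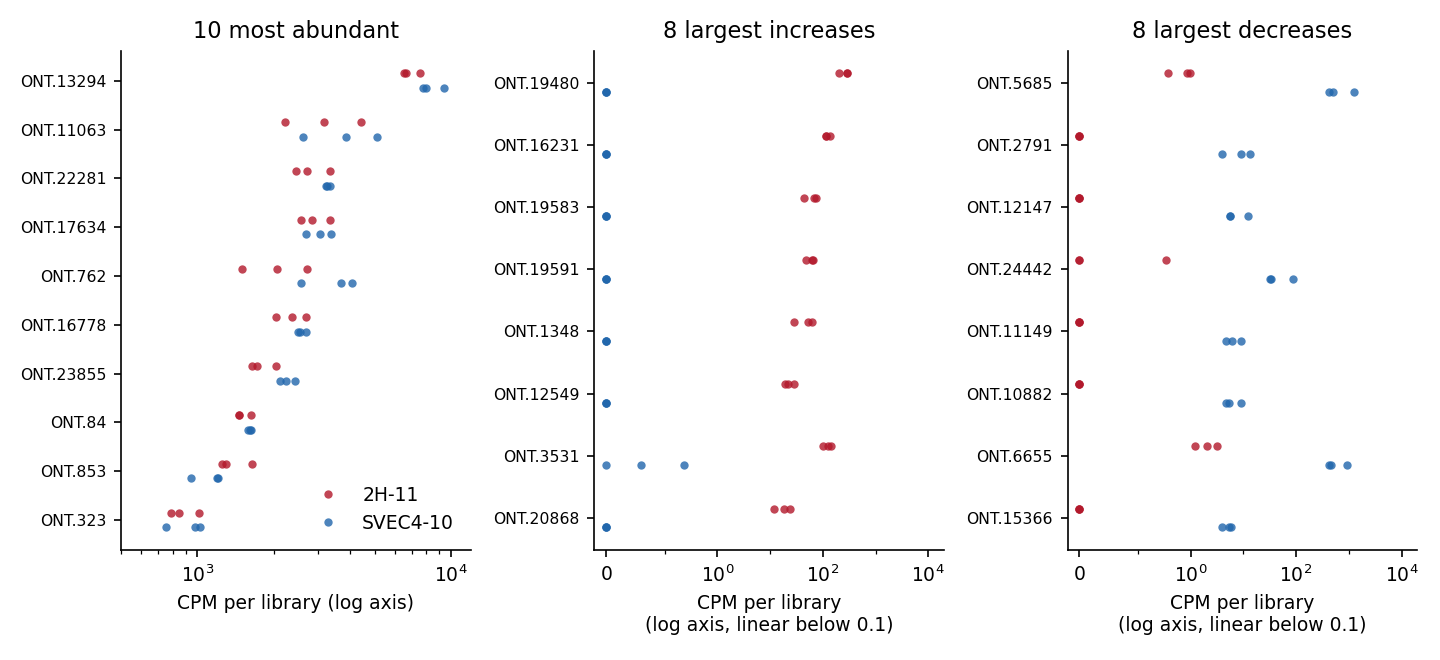
CPM in each library (horizontal axis, log scale, linear below 0.1 where the axis includes 0) for the 10 most abundant new gene loci, the 8 largest increases and the 8 largest decreases in 2H-11; each point is 1 library of 3 per line. The abundant loci have neighbouring points of both lines, while the other 2 panels show 1 line at or near 0 against levels that reach 292 CPM for the increases and 1259 CPM for the decreases.

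Abundant loci that fell were also seen with closely spaced libraries. ONT.24235 was at 343, 385 and 456 CPM in 2H-11 and at 1022, 989 and 1063 CPM in the other line (log2 fold change -1.47, SE 0.16, edgeR adjusted p = 1.1e-06). ONT.18223 was at 414, 401 and 476 CPM against 630, 552 and 649 CPM (log2 fold change -0.59, edgeR adjusted p = 0.00574, and 0.0515 without 2H-11 replicate 2). The lines did not overlap in either locus. ONT.3161 was at 462, 356 and 476 CPM against 626, 433 and 723 CPM, overlapped, and had an adjusted p of 0.0272 in edgeR. That call was lost with scaling factors from known genes (adjusted p = 0.0825) and when 2H-11 replicate 2 (0.158) or SVEC4-10 replicate 3 (0.126) was left out.

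The loci with the smallest fitted change included abundant and scarce ones. ONT.11719 was at 84.7, 134 and 91.5 CPM in 2H-11 and at 134, 70.3 and 90.6 CPM in SVEC4-10, and ONT.16479 at 97.5, 171 and 212 CPM and at 167, 132 and 150 CPM. ONT.9063 was at 4.47, 10.96 and 22.1 CPM in 2H-11 and at 16.6, 11.6 and 8.57 CPM in SVEC4-10. The libraries of these loci overlapped, so a fold change near 1 came with a wide spread (SE 0.22, 0.23 and 0.41 on the log2 scale). ONT.11460 (5.31 ± 0.403 CPM in 2H-11 and 5.08 ± 1.27 in SVEC4-10) and ONT.12597 (5.81 ± 2.79 and 5.29 ± 0.965) lay near the lower limit of the rule. A pair of loci did not pass the filter on counts and were not tested. They were ONT.21203, with 95 counts in 2H-11 replicate 1 and 80 in SVEC4-10 replicate 3 and none elsewhere, and ONT.22061, with 122 counts over 2H-11 and 13 over SVEC4-10.

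Within 2H-11 the new loci differed together between libraries. Among the 911 loci called higher, replicate 1 was the lowest 2H-11 library in 91.1% and replicate 3 the highest in 85.2%. Known genes called higher showed these orders in 28.2% and 31.1%. The 612 loci that were tested and not called showed them too, in 75% and 68.8%, beside 21.6% and 28.2% of known genes not called. The median level of the new loci was 7.07, 10.2 and 11.8 CPM in 2H-11 replicates 1 to 3 and 5.84, 4.41 and 5.12 CPM in SVEC4-10 replicates 1 to 3. The median of the known genes under the same rule was 24.6, 23.1 and 21.1 CPM and 25.5, 22.0 and 23.9 CPM. The spread within 2H-11 was also wider in new loci, with a median coefficient of variation of 28.7% beside 17.3% for known genes at 10 to 25 CPM. In SVEC4-10 it was 21.7% beside 19.8% at that level and 23.6% beside 24.3% at 5 to 10 CPM. The abundant loci spread more widely than known genes in SVEC4-10 too. The values there were 17.5% beside 14.8% at 25 to 100 CPM and 18.5% beside 11.3% at 100 CPM or more.

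On the scale of log2(CPM + 0.5) minus each gene's mean over the 6 libraries, the median of the new loci was 0.12, 0.57 and 0.84 in 2H-11 and -0.33, -0.64 and -0.46 in SVEC4-10. The known genes stayed between -0.10 and 0.08 in all libraries. In the loci not called the medians were -0.18, 0.23 and 0.46 in 2H-11 and 0.05, -0.29 and -0.12 in SVEC4-10. There 2H-11 replicate 1 lay among the SVEC4-10 libraries, an overlap that picking loci without a call favours by itself. Over all the new loci the median of 2H-11 replicate 1 lay above that of every SVEC4-10 library. The CPM rule took 769 of these loci through 2H-11 alone and 133 through SVEC4-10 alone. The medians over all loci are therefore not free of that selection. Without 2H-11 replicate 1, 1023 loci were called higher and 142 lower. Without 2H-11 replicate 3, 737 were called higher and 161 lower.

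**Figure D5:**
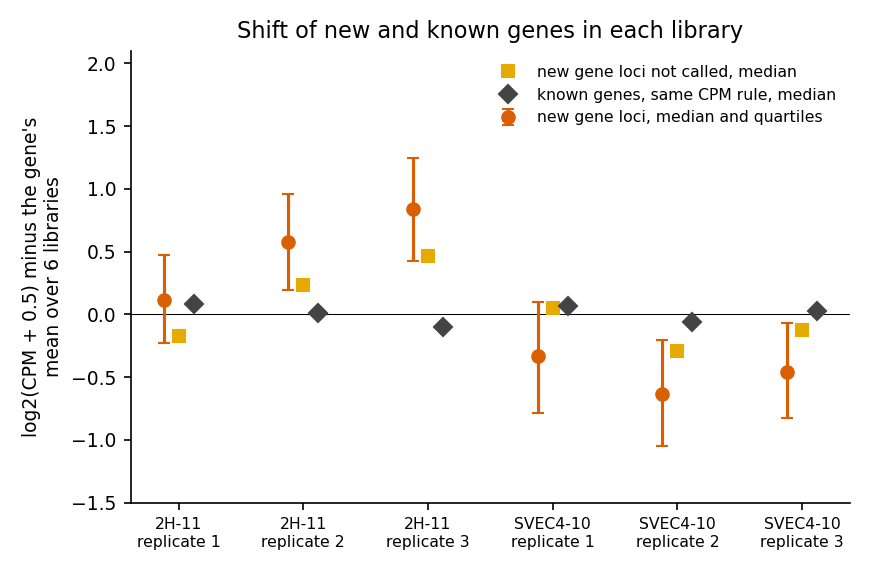
Shift of genes in each library, as log2(CPM + 0.5) minus the gene's own mean over the 6 libraries (vertical axis), for the new gene loci (median with quartiles), the loci not called (median) and the known genes under the same CPM rule (median). The new loci lie at 0.12 in 2H-11 replicate 1 and at 0.84 in replicate 3, while the known genes stay between -0.10 and 0.08.

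Other properties of the 2H-11 libraries differed in the same order or its reverse. The read-weighted mean transcript length of the known genes was 1.11, 1.09 and 1.05 kb in 2H-11 replicates 1 to 3, beside 1.10 to 1.12 kb in SVEC4-10. The share of counts on ribosomal protein genes was 15.6, 17.0 and 18.8% in 2H-11 and 15.8 to 17.0% in SVEC4-10, and that on mitochondrially encoded genes was 2.31, 2.1 and 1.81% in 2H-11 and 1.5 to 2.0% in SVEC4-10. Their part in the levels of the new loci was not tested.

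SVEC4-10 replicate 1 stood apart for some loci. It was more than 2 times each of the other SVEC4-10 libraries in 18 of the 139 loci called lower in 2H-11 (12.9%). The same was found for 4.83% of the loci called higher and for 1.01% of the known genes called lower. It was the highest SVEC4-10 library in 64.0% of the loci called lower. It was also the highest in 51.5% of those called higher and 56.2% of those not called, beside 41.6% of known genes called lower. Without that library 134 loci were called lower, 130 of them among the 139.

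As a share of all counts, New_gene rows together made up 6.38, 7.54 and 8.81% of the 2H-11 libraries and 6.98, 6.02 and 6.24% of the SVEC4-10 libraries. The means were 7.58 ± 1.21% and 6.41 ± 0.505% (SD, n = 3), and the difference of 1.16 percentage points did not exceed the spread between libraries (exact permutation test, two-sided, p = 0.2, where the smallest p for 3 against 3 is 0.1). The loci over the rule took 5.55, 6.42 and 7.57% of the 2H-11 counts and 6.18, 5.45 and 5.49% of the SVEC4-10 counts. Without the 10 most abundant they took 2.97, 4.02 and 4.76% and 2.998, 2.36 and 2.62%, so that 2H-11 replicate 1 lay within the range of SVEC4-10 and the other 2H-11 libraries above it. The number of loci with at least 1 count was 1646 to 1649 in the 2H-11 libraries and 1598 to 1639 in the SVEC4-10 libraries, of which the deepest had the most.

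The authors' deposited table holds a DESeq2 comparison of the lines. At an adjusted p under 0.01 and a 2-fold change it lists 647 of 1663 new loci as higher in 2H-11 (38.9%, against 11.5% of the 16107 genes with a value) and 104 as lower (6.25%, against 7.46%). Of these, 646 and 104 were also called in the same direction by the edgeR test on the deposited counts. For known genes under the CPM rule the authors' deposited table lists 572 higher and 874 lower. Both comparisons rest on the same 6 libraries.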

How the data were processed

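RNA from 3 libraries each of 2H-11 and SVEC4-10 was sequenced with the direct RNA kit SQK-RNA002, per the labels' protocols. Genome builds mm10 and GRCm38 are named in the submitters' processing notes; aligner, counter, annotation, use of strand and any filter were not given in the sources used here. Raw read counts per gene, and CPM made from them, were deposited by the authors, as were other columns with the log2 fold change and adjusted p of their DESeq2 comparison, whose sign was read from the CPM. Left out were 13 broken lines. Loci whose reads could be shared with near-identical copies or overlapping genes were not separated.

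Counts were compared with edgeR 4.0.16 in R 4.3.3, with line as the only term of the quasi-likelihood test. Genes passed filterByExpr with minimum count 10 and minimum total 15, and scaling was TMM. Benjamini-Hochberg adjustment ran over 13187 genes, with a threshold of 0.05. The biological coefficient of variation was 20.2%. The fit was also run on simulated counts with this coefficient for every gene and as many genes raised as lowered. Such counts cannot check the scaling or the direction of calls in these libraries. DESeq2 1.42.0, other scalings, filters, CPM rules of 2 and 10, thinning to the smallest library, a replicate block and leaving out each library were alternatives. Fold bounds used 3 counts over a line's total, and ratios from 1 to 3 counts an exact 95% counting interval. Transcript lengths came from GENCODE M21.

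Named loci were the 10 most abundant, the 8 largest increases and 8 largest decreases among calls without overlap, the 5 smallest changes and those next to the CPM rule; others are marked as picked after their values were seen. Members, marker lists and rules were chosen with earlier results of these data known.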

Additional observations from a re-analysis of the deposited data

How the results depend on the processing

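The difference in the share of higher calls between new loci and known genes of equal level was 42.3 percentage points. Loci and known genes that met the CPM rule through a single line were included. It was 36.9 with library size as the only scaling, 35.9 with TMM factors from known genes, 44.7 without a filter, 39.5 (39.47) with at least 20 counts in 3 libraries, 39.5 (39.48) after thinning to the smallest library, 45.1 with DESeq2, and 37.3 to 45.7 when a library was left out. A CPM rule of 10 left 866 loci tested and 540 higher calls. With TMM factors from New_gene rows, an alternative chosen after seeing the data, higher calls numbered 427 and lower calls 336. That scaling also turned ONT.9063 to -0.93 (log2, edgeR adjusted p = 0.0422), ONT.16479 to -0.85 (0.0281) and ONT.21020 to -0.29 (0.415); the shift follows from its construction, since it centres the New_gene rows. Leaving out single libraries gave 737 to 1023 higher and 128 to 161 lower calls among the loci, and a difference in the share of New_gene counts of 0.550 to 1.76 points. The replicate block gave 897 higher and 141 lower calls. Same-numbered libraries deviated with correlations of -0.0197, 0.0537 and -0.0056, and 2 of 6 libraries matched best with their own number, so the numbers were not taken as a pairing. Over 15 alternatives, 39 named loci kept their side of the threshold in 546 of 581 values, lost the call in 19 and gained one in 13. In 36 of the 546 the sign changed, all in 6 loci without a call, namely the 5 smallest changes and ONT.853 (-0.58 with TMM factors from New_gene rows).

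Depth limits the scarce loci: 62.1% of the loci lay under 10 CPM, and bounds against SVEC4-10 rest mainly on replicate 3. With 3 libraries a line of unstated origin, the p-values cover only the spread between these libraries.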
